A study of Rattus norvegicus with 11 samples.

Results

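The comparison described here set 4 arrays of brain-dead rats given vagal stimulation (BD_VNS, replicates 1 to 4) against 3 arrays from ventilated rats that were not brain-dead (NBD, replicates 1, 3 and 4). It covers all genes on the array, and it asks which genes differed from the control level when the nerve had been stimulated. The arrays were chosen by their titles and make up 7 of the 11 in the series. The other 4 came from brain-dead rats without stimulation (BD, replicates 1, 3, 4 and 6), and their values are set beside the comparison where they bear on it. RNA came from the small intestine and was hybridised to Affymetrix rat arrays, 1 array per sample. The labels place the tissue of the BD and BD_VNS groups at 6 hours after brain death, and give the NBD group as anaesthetised, ventilated rats at 6 hours. All 3 groups are labelled as transgenic rats with no gene named, and the NBD source field also names brain-dead animals, so the titles were followed. No label gives the strain, age, the settings of the stimulation, or whether each array stands for a separate animal, and the p-values therefore measure only the spread between these arrays, whose number limits the precision.

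Brain death is the irreversible loss of all brain function while circulation and ventilation are maintained. It can disturb the pituitary drive to the adrenal gland and is followed by inflammation in organs that may be donated. Through the vagus nerve the gut receives its parasympathetic supply, and stimulating that nerve lowers cytokine release in animal models of inflammation. The lining of the small intestine absorbs nutrients and iron, follows a daily clock, and responds strongly to glucocorticoid hormones.

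The samples had the profile of small intestine. The epithelial markers Vil1, Fabp2, Alpi, Cdh1 and Epcam lay at or above percentile 98.3 of all probe sets in NBD and 98.7 in BD_VNS, and the hepatocyte marker Alb lay at percentile 19.5 and 6.9. Pancreatic acinar genes, a sign of adjoining pancreas in the sample, had mean log2 levels of 6.95 to 7.01 in the NBD arrays and of 6.96, 6.99, 7.63 and 7.47 in BD_VNS 1 to 4. In BD 4 and BD 6 they were at 13.68 and 13.004. The Gapdh and Actb control probes gave a log2 ratio of 3' over 5' signal, which rises when RNA is degraded and was 0.74, 0.69 and 0.87 in NBD 1, 3 and 4. It was 1.04, 0.75, 1.03 and 1.098 in BD_VNS 1 to 4, so that BD_VNS 2 lay within the control range and the other 3 arrays above it. The groups' difference in this ratio had a 2-sided exact permutation p of 0.0857, where the smallest p that 35 arrangements allow is 0.0286. Its part in the results was not tested beyond refits that hold it as a covariate, called the 3'/5' covariate below.

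Of 11427 probe sets, each called a gene here, 965 passed at an adjusted p under 0.05 (8.44% of those tested): 416 were higher in BD_VNS (3.64%) and 549 were lower (4.8%). These are the shares to set beside the counts of genes that passed in each list below. Most differences were small. The median size among the genes that passed was 0.31 log2 units, 6 genes were at least 2-fold higher and 25 at least 2-fold lower. The median difference over all genes was 0.01. An unadjusted p under 0.05 was reached by 2631 of the 11427 genes, the share to set beside the unadjusted counts given for lists below. With the 3'/5' covariate 363 of the 11427 passed, 100 higher and 263 lower. The arrays of the groups did not overlap for 951 of the 965 genes, against 20.9% of all genes tested. Fkbp5 and Sgk1, which glucocorticoids induce, fell most, followed by the mast cell protease Mcpt1. The largest rise among genes whose arrays did not overlap was that of Slc11a2, the importer of iron at the surface of the enterocyte. The plot of differences against mean level shows how few genes lay beyond 1 log2 unit.

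**Figure D1:**
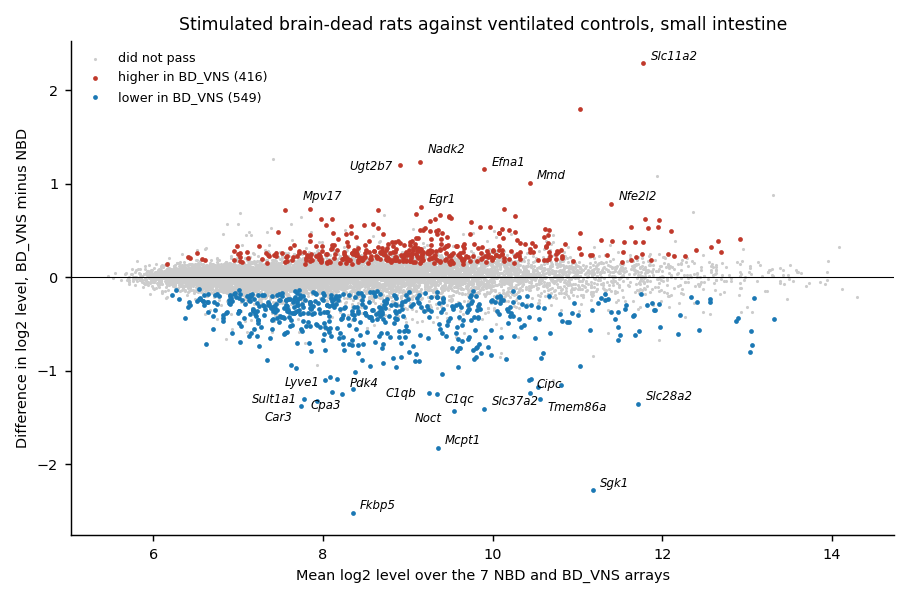
Difference in log2 level, BD_VNS minus NBD (vertical axis), against the mean log2 level over the 7 arrays of both groups (horizontal axis), with 1 point per gene. Coloured points passed at an adjusted p under 0.05, 416 higher and 549 lower; Slc11a2 stands highest at 2.29, and Fkbp5 and Sgk1 stand lowest at -2.52 and -2.28.

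Genes that glucocorticoids induce were mostly lower in the stimulated brain-dead rats than in the ventilated controls. Of 24 such genes measured, 13 fell, 2 rose and 9 did not pass, and the median log2 difference of the list was -0.38. The mean level of the list was 8.81, 8.78 and 8.83 in NBD 1, 3 and 4 and 8.30, 8.31, 8.29 and 8.28 in BD_VNS 1 to 4. The 4 stimulated arrays were nearly level, with BD_VNS 2 highest and BD_VNS 4 lowest, and lay far below all controls. With the 3'/5' covariate 10 of the 24 fell and 0 rose, where 263 and 100 of all 11427 genes did, and the median was -0.25.

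Fkbp5 (Entrez Gene 361810), a co-chaperone that restrains the glucocorticoid receptor and is induced by it, was at 9.96, 9.33 and 10.09 in the NBD arrays and at 7.14, 7.39, 7.29 and 7.26 in the BD_VNS arrays. Every stimulated array lay more than 1 log2 unit below the lowest control. Fkbp5 fell by 2.52 ± 0.14 log2 units, or 5.74-fold (SE; limma adjusted p = 2.47e-06). Without stimulation it was at 7.15, 7.07, 7.30 and 7.12 in BD 1, 3, 4 and 6, and BD_VNS differed from BD by 0.11 (adjusted p = 0.661). The kinase Sgk1 (Entrez Gene 29517), which sustains sodium uptake by epithelia, was at 12.57, 12.40 and 12.48 in NBD and at 10.06, 10.28, 10.40 and 10.08 in BD_VNS. The groups were again far apart, and Sgk1 fell by 2.28 ± 0.12, or 4.85-fold (adjusted p = 1.9e-06). Its BD arrays were at 10.08, 10.49, 9.96 and 10.33, in the same range as the stimulated ones.

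Other members fell by less. Pdk4, a kinase that shuts off glucose oxidation in mitochondria, was at 8.92 to 8.96 in NBD and at 7.62 to 7.76 in BD_VNS, a 2.38-fold fall (adjusted p = 3.73e-06). The transcription factor Klf9 fell by 0.71 ± 0.05 (adjusted p = 1.57e-05), and Cdkn1a, an inhibitor of cell division, fell by 0.92 ± 0.07 (adjusted p = 5.49e-05). Tsc22d3, which carries anti-inflammatory effects of glucocorticoids and is named here after its values were seen, fell by 0.97 ± 0.09 (adjusted p = 0.000166). The 2 members that rose were Bcl6, a transcriptional repressor (0.55 ± 0.09), and Glul, the enzyme that makes glutamine (0.57 ± 0.13), both also named after their values were seen. In BD against NBD, a comparison that uses the same NBD arrays, 9 of the 24 genes fell and 2 rose, where 5.73% of all genes passed in either direction, and the arrays of 14 did not overlap, where 20.4% of all genes did not. Between BD_VNS and BD, 1 of the 24 passed, where 5.56% of all genes did, and the arrays of 2 did not overlap, where 13.1% did not.

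Of 18 renin, angiotensin and natriuretic genes 4 fell and 1 rose, where 4.8% and 3.64% of all genes did (median -0.06). Hsd11b2, which inactivates glucocorticoids before they reach the mineralocorticoid receptor, was at 8.14 to 8.29 in NBD and at 7.79 to 7.97 in BD_VNS and fell by 0.37 ± 0.06 (adjusted p = 0.00311), but did not pass with the 3'/5' covariate (adjusted p = 0.0508). Hsd11b1, which regenerates active glucocorticoid, was at 8.24, 8.30 and 8.43 in NBD and at 7.70, 8.18, 7.83 and 7.45 in BD_VNS, and fell by 0.53 ± 0.13 (adjusted p = 0.0244). BD_VNS 2 lay just under the lowest control, and the fall of Hsd11b1 no longer passed in 6 of 22 alternative fits. The angiotensin receptor Agtr1a, at 7.67, 7.56 and 7.77 in NBD and 6.92, 7.08, 6.91 and 6.81 in BD_VNS, fell 1.67-fold (adjusted p = 8.13e-05). Nr3c2, the mineralocorticoid receptor, was higher by 0.21 ± 0.06 (adjusted p = 0.0453), a call that did not hold in 15 of the 22 alternatives.

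**Figure D2:**
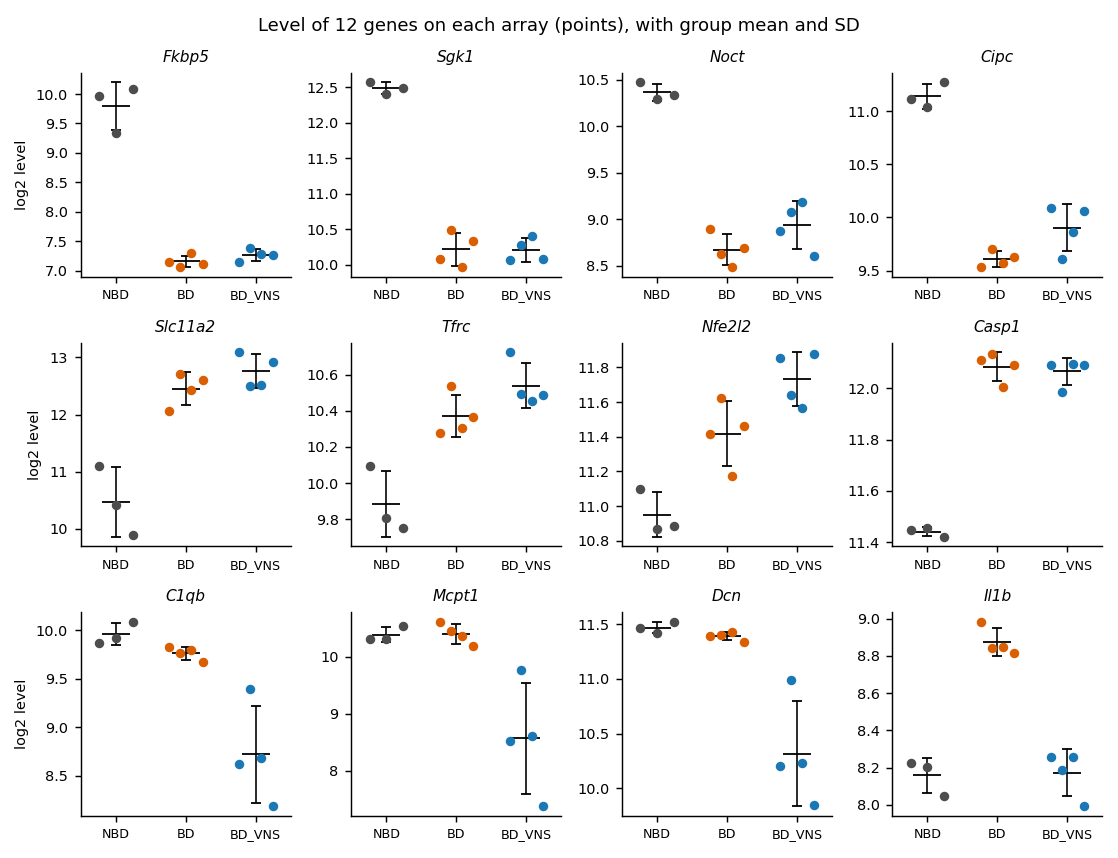
Log2 level (vertical axes) of 12 genes on each of the 11 arrays, with NBD in grey, BD in orange and BD_VNS in blue; points are arrays, horizontal bars the group mean and error bars the SD. Fkbp5, Sgk1, Noct and Cipc were low and Slc11a2, Tfrc, Nfe2l2 and Casp1 high in both brain-dead groups, C1qb, Mcpt1 and Dcn were low in BD_VNS with BD_VNS 2 the highest of its group, and Il1b was near 8.2 in NBD and BD_VNS and near 8.9 in BD.

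The circadian clock list split in both directions. The clock is a loop in which CLOCK and BMAL1 switch on genes through E-boxes, PER and CRY proteins repress them, and output factors such as DBP and NFIL3 act on D-boxes. Of 18 clock genes measured, 6 fell and 3 rose, where 4.8% and 3.64% of all genes did (median -0.13). The other 9 did not pass. Noct, an enzyme of daily rhythm that removes phosphate from NADPH, was at 10.47, 10.29 and 10.34 in NBD and 8.88, 9.08, 9.19 and 8.61 in BD_VNS. Cipc, a protein that binds CLOCK and holds it back, was at 11.12, 11.04 and 11.27 in NBD and 10.08, 9.61, 9.86 and 10.06 in BD_VNS. Noct fell 2.69-fold (adjusted p = 8.96e-05) and Cipc 2.36-fold (adjusted p = 5.62e-05). Usp2, a deubiquitinase under clock control, fell by 0.50 ± 0.06 (adjusted p = 0.00106).

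Dbp, an activator at D-boxes, was at 9.81, 9.88 and 9.73 in NBD and 10.37, 10.20, 10.19 and 10.33 in BD_VNS and rose by 0.47 ± 0.06 (adjusted p = 0.00156). Nr1d1, a nuclear receptor that represses the gene for BMAL1, was at 8.82, 8.94 and 8.79 in NBD and 9.28, 9.30, 9.17 and 9.33 in BD_VNS and rose by 0.42 ± 0.06 (adjusted p = 0.00189). All stimulated arrays lay above all controls for both. The remaining calls are named after their values were seen. Per2, a core repressor, was at 10.03, 9.66 and 9.75 in NBD and 9.34, 8.76, 9.40 and 9.23 in BD_VNS and fell by 0.63 ± 0.13 (adjusted p = 0.0141), and its BD arrays were lower still, at 8.72 to 8.89. Per2 no longer passed without NBD 1. The repressor Cry1 fell by 0.27 ± 0.08, the kinase Csnk1e fell by 0.18 ± 0.04, and Nfil3, a repressor at D-boxes, rose by 0.27 ± 0.06. Their calls were lost in 9 of 22, 5 of 20 and 4 of 21 alternatives that included the gene.

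The upstream sequences of Per2 and Nr1d1 are shown because they hold the letters that the clock factors named above are known to read. They are the 250 bases before the RefSeq start of each gene in build GRCr8, at chr9:99496994-99497243 for Per2 and chr10:84229455-84229704 for Nr1d1, both on the minus strand. The capitals mark the D-box TTATGTAA in Per2 and the E-box CACGTG in Nr1d1.
Per2: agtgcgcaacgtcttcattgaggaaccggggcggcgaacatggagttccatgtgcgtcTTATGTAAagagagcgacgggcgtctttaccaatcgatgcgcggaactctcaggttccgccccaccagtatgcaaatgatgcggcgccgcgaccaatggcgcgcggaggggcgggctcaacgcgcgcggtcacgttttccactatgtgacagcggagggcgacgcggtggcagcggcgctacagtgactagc
Nr1d1: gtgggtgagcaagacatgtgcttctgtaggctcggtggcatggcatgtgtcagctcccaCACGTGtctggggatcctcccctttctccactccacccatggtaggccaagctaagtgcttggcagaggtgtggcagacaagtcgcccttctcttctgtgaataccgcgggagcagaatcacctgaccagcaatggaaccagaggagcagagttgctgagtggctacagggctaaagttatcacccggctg
The D-box began 192 bases before the start of Per2 and the E-box 191 bases before one of the 2 annotated starts of Nr1d1. Of 7 changed clock genes with a sequence, 1 held the D-box, searched like the others on both strands, against 0.885% of 27457 genes, and 1 held the E-box, against 6.18%. Among 12 glucocorticoid-induced genes that fell and had a sequence, 0 held the full palindromic glucocorticoid response element (0.00364% of all genes) and 1, Crispld2, held its core AGAACA (18.5%). The presence or absence of these letters in such a window is a description and shows no binding.

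Of 16 iron and heme genes 4 rose and 2 fell, where 3.64% and 4.8% of all genes did. The other 10 did not pass, and the median was 0.09. Slc11a2 (DMT1), which carries ferrous iron into the enterocyte, was at 11.10, 10.42 and 9.89 in NBD and at 13.10, 12.50, 12.51 and 12.92 in BD_VNS. Every stimulated array lay far above the highest control, and the gene rose 4.88-fold, by 2.29 ± 0.25 (adjusted p = 0.000334). Its BD arrays were at 12.06, 12.72, 12.42 and 12.60, and BD_VNS differed from BD by 0.30 (adjusted p = 0.477). Tfrc, the transferrin receptor, was at 10.09, 9.81 and 9.75 in NBD and at 10.73, 10.49, 10.45 and 10.49 in BD_VNS, and rose 1.58-fold (adjusted p = 0.00173).

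Cybrd1, the brush border reductase that prepares iron for Slc11a2 and is named here after its values were seen, was at 11.42, 9.32 and 9.29 in NBD and at 12.11, 11.36, 11.48 and 12.25 in BD_VNS. NBD 1 lay within the range of the stimulated arrays, so the rise of 1.79 ± 0.48 (adjusted p = 0.0401) goes with overlapping groups, and it did not hold in 11 of the 22 alternatives. NBD 1 was also the highest control for Slc11a2 and Tfrc. Hmox1, which breaks down heme, rose by 0.52 ± 0.11 (adjusted p = 0.0141). This call was lost without NBD 1 and with the 3'/5' covariate (0.38, adjusted p = 0.171). Slc46a1, a carrier of folate and heme, and Slc39a14, a carrier of zinc and iron, fell by 0.36 ± 0.08 (adjusted p = 0.0135) and 0.64 ± 0.17 (adjusted p = 0.0365), with calls lost in 3 and 9 alternatives. With the 3'/5' covariate 2 genes of the iron and heme list were higher and 0 lower.

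Among the carriers of the brush border and basal membrane, 7 of 34 nutrient and ion transport genes fell and 1 rose. The shares over all genes were 4.8% and 3.64%, and the median of the list was -0.04. Slc28a2, which takes up purine nucleosides with sodium, was at 12.63, 12.41 and 12.44 in NBD and at 11.32, 10.66, 11.23 and 11.33 in BD_VNS, and fell 2.56-fold (adjusted p = 0.000297). Slc5a12, a sodium-coupled carrier of lactate, was at 8.73, 8.81 and 8.55 in NBD and 7.47, 7.75, 7.72 and 7.54 in BD_VNS, and fell 2.1-fold (adjusted p = 0.00145). Slc9a3 (NHE3), the main sodium-proton exchanger of the brush border, was at 10.83, 11.23 and 11.13 against 10.02, 10.29, 10.48 and 10.001, a difference of -0.86 ± 0.14 (adjusted p = 0.0032). No stimulated array reached the lowest control for any of these genes. Slc3a2, the heavy chain of several amino acid carriers, fell by 0.61 ± 0.09 (adjusted p = 0.00215). The 1 rise was that of Slc6a20a, a carrier of proline named after its values were seen (0.54 ± 0.15, adjusted p = 0.0467), and 15 of the 22 alternatives did not keep it. With the 3'/5' covariate 3 of the 34 genes were lower and 0 higher, and Slc9a3 did not pass (adjusted p = 0.0529). In BD, the levels of Slc28a2, Slc5a12 and Slc9a3 were 11.10 to 11.42, 6.95 to 7.72 and 9.97 to 10.36.

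Purine genes moved both ways, with 4 of 25 lower and 2 higher, where 4.8% and 3.64% of all genes were (median -0.02). Ada, which deaminates adenosine and is abundant in the villus, was at 13.49, 13.44 and 13.48 in NBD and at 12.68, 12.81, 12.61 and 12.90 in BD_VNS, a 1.65-fold fall (adjusted p = 0.000236). Nt5e, the surface enzyme that makes adenosine from AMP, fell by 0.51 ± 0.06 (adjusted p = 0.000948), and Ampd3, an AMP deaminase named after its values were seen, fell by 0.29 ± 0.06. Further along the pathway, Pnp, which splits inosine and guanosine, rose by 0.25 ± 0.04 (adjusted p = 0.00583) and Xdh, which makes uric acid, rose by 0.32 ± 0.05 (adjusted p = 0.00406). In the whole purine list the arrays of 7 of the 25 genes did not overlap between the groups, where 20.9% of all genes did not.

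Of 29 genes of drug and toxin metabolism, 6 fell and 0 rose, where 4.8% and 3.64% of all genes did. In either direction 14 had an unadjusted p under 0.05, and the median was -0.11. Sult1a1, a sulfotransferase of phenols, was at 8.83, 8.35 and 8.86 in NBD and at 7.28, 7.45, 7.25 and 7.45 in BD_VNS and fell 2.5-fold (adjusted p = 0.00022). Cyp3a9, a steroid and drug oxidase, fell by 0.45 ± 0.06 (adjusted p = 0.000753), and Gsta1, a glutathione transferase, fell by 0.73 ± 0.09 (adjusted p = 0.000875). Among the 15 largest rises, Ugt2b7, a glucuronosyltransferase, was at 8.27, 7.95 and 8.43 in NBD and at 9.47, 9.07, 9.15 and 9.98 in BD_VNS and rose 2.3-fold (adjusted p = 0.0105). Ugt2b35 rose by 0.67 ± 0.14 (adjusted p = 0.0143), and the alcohol dehydrogenases Adh7 and Adh4 rose by 0.72 ± 0.12 (adjusted p = 0.00487) and 0.72 ± 0.11 (adjusted p = 0.00218). Ugt2b7 and Ugt2b35 belong to a family of close copies, and their probes may measure more than 1 copy.

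Genes of the enterocyte passed in 12.5% of cases, against 8.44% of all genes. Of 16 enterocyte genes, Cdx1, a transcription factor of intestinal identity, fell by 0.42 ± 0.06 (adjusted p = 0.00291) and Ada fell as given above, and the other 14 did not pass (median -0.09). Of the 16, 7 had an unadjusted p under 0.05, where 2631 of all 11427 genes did. The arrays of 7 did not overlap, where 20.9% of all genes did not. Of 19 fat absorption genes, 0 passed, with 7 at an unadjusted p under 0.05. Apob, the core protein of chylomicrons, was at 10.47, 10.51 and 10.42 in NBD and at 10.23, 10.40, 10.09 and 10.02 in BD_VNS, a difference of -0.28 with a 95% confidence interval of -0.46 to -0.10 (adjusted p = 0.0583). In BD against NBD, 6 of the 16 enterocyte genes and 8 of the 19 fat absorption genes fell, where 3.63% of all genes did. In BD_VNS against BD, 3 genes of each of these lists were higher, where 1.9% of all genes were. Of 35 genes of oxidative phosphorylation and 22 of the proteasome, 0 passed, with 3 in each list at an unadjusted p under 0.05.

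The largest remaining rises did not belong to 1 pathway. Nadk2, the mitochondrial NAD kinase, was at 8.82, 8.23 and 8.27 in NBD and at 9.95, 9.28, 9.38 and 10.09 in BD_VNS and rose 2.35-fold (adjusted p = 0.00671). Efna1, an ephrin ligand, was at 9.05, 9.36 and 9.31 against 10.70, 9.88, 10.17 and 10.83 and rose 2.23-fold (adjusted p = 0.00354). Mmd, a membrane protein first described in maturing macrophages, was at 9.65, 10.05 and 9.88 against 11.13, 10.90, 10.63 and 10.80 and rose 2.01-fold (adjusted p = 0.0035). BD_VNS 2 was the lowest stimulated array for Nadk2 and Efna1. That it lay above every control was a condition for a place among these rises. Mpv17, a protein of the inner mitochondrial membrane, rose by 0.73 ± 0.13 (adjusted p = 0.00568), Ankh, an exporter linked to pyrophosphate, by 0.73 ± 0.16 (adjusted p = 0.0143), and Etl4 by 0.66 ± 0.11 (adjusted p = 0.00477). With the 3'/5' covariate, Nadk2, Efna1, Ugt2b7, Ugt2b35, Adh7, Mpv17, Ankh and Etl4 no longer passed, and Mmd, Adh4 and Slc11a2 did.

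Stress response genes were mixed. Nfe2l2 (NRF2), the master regulator of antioxidant genes, was at 11.10, 10.87 and 10.88 in NBD and at 11.85, 11.64, 11.56 and 11.88 in BD_VNS and rose 1.72-fold (adjusted p = 0.00149). Its target Gclc, which starts glutathione synthesis, rose by 0.49 ± 0.08 (adjusted p = 0.00479). With Hmox1, 3 of 22 genes of this list rose, while Gpx3, a secreted glutathione peroxidase, and Sqstm1, an autophagy receptor, fell by 0.78 ± 0.14 and 0.26 ± 0.06 (median 0.04). With the 3'/5' covariate 2 of the 22 were higher and 0 lower. Among 29 immediate early genes 4 rose and 3 fell (median 0.03). Egr1, a growth response factor, was at 8.89, 8.80 and 8.499 in NBD and at 9.32, 9.21, 9.30 and 10.10 in BD_VNS, with BD_VNS 4 far above the rest, and rose by 0.75 ± 0.19 (adjusted p = 0.0317), a call lost in 7 alternatives. Ier5 rose by 0.31 ± 0.06 (adjusted p = 0.00683), and Junb and Ier2, named after their values were seen, rose by 0.39 ± 0.10 and 0.43 ± 0.12 with calls lost in 6 and 11 alternatives. Jun fell by 0.74 ± 0.08 (adjusted p = 0.00036), and the phosphatases Dusp2 and Dusp6, which switch off MAP kinases, fell by 0.46 ± 0.07 and 0.81 ± 0.17. With the 3'/5' covariate Dusp2 and Dusp6 did not pass (adjusted p = 0.0601 and 0.0829), and 1 of the 29 genes was higher and 1 lower. Further falls outside every list, chosen after their values were seen, were those of the kinase Mapk6 (-1.18 ± 0.07, adjusted p = 2.47e-06) and of Cdc37l1, a partner of HSP90 (-1.10 ± 0.05, adjusted p = 1.08e-06).

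Cell death genes included a small but uniform rise. Casp1, the protease that matures interleukin-1 beta, was at 11.45, 11.46 and 11.42 in NBD and at 12.09, 11.99, 12.10 and 12.09 in BD_VNS, and rose 1.54-fold (adjusted p = 1.57e-05). It was at 12.003 to 12.13 in BD, and BD_VNS differed from BD by -0.02 (adjusted p = 0.831). Of 24 apoptosis and p53 genes, 6 rose and 4 fell (median -0.10). Apaf1 and Casp6 each rose by 0.34 ± 0.06 (adjusted p = 0.00447 and 0.00418), and Gadd45a and Cdkn1a fell by 0.51 ± 0.10 and 0.92 ± 0.07. The other calls, named after their values were seen, were rises of Casp4, Fas and Zmat3 by 0.41, 0.23 and 0.21, and falls of Faslg and Ccng1 by 0.19 and 0.32. These calls were lost in 6, 2, 16, 11 and 3 alternatives, out of 21 for Fas and Faslg and 22 for the others. Of 28 cell cycle genes, 5 rose and 0 fell, with 15 at an unadjusted p under 0.05 (median 0.14). Ccnd1, the cyclin that starts the cycle, was at 9.21, 9.16 and 9.07 in NBD and 9.96, 9.63, 9.70 and 9.81 in BD_VNS and rose by 0.63 ± 0.07 (adjusted p = 0.000596). Kif20a, Pcna, Ccne2 and Top2a rose by 0.25, 0.27, 0.24 and 0.27, and 2 of the 5 calls remained with the 3'/5' covariate.

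Of 47 cytokines and chemokines 7 passed in BD_VNS against NBD, with 13 at an unadjusted p under 0.05, and of 14 adhesion molecules 3 passed, with 6 at an unadjusted p under 0.05. Over all genes 8.44% passed, and 2631 of 11427 had such an unadjusted p. Il1b, interleukin-1 beta, was at 8.22, 8.20 and 8.05 in NBD and at 8.26, 8.19, 8.26 and 7.99 in BD_VNS, with overlapping groups and a difference of 0.01 (95% confidence interval -0.14 to 0.17, adjusted p = 0.944). The BD arrays were at 8.98, 8.84, 8.85 and 8.81, all above both other groups. Cxcl1, which attracts neutrophils, was at 6.61, 6.65 and 6.72 against 6.51, 6.49, 6.95 and 6.62, a difference of -0.02 (interval -0.29 to 0.25). It was dim, with an NBD mean of 6.66 close to that of the fat cell marker Lep (6.65, percentile 12.7). Icam1, which holds leukocytes on endothelium, was at 7.89, 8.01 and 7.80 against 7.87, 8.31, 8.05 and 7.71, a difference of 0.08 (interval -0.17 to 0.34). The intervals of Il1b, Cxcl1 and Icam1 in the main fit exclude neither small rises nor small falls. With the 3'/5' covariate Icam1 passed as higher, at 0.39 (adjusted p = 0.0387). Il1b and Cxcl1 did not pass with it (adjusted p = 0.538 and 0.867).

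Ccl2, which recruits monocytes, was higher than in the controls by a narrow margin. It was at 7.58, 7.89 and 7.68 in NBD and at 8.20, 8.54, 8.43 and 7.94 in BD_VNS, a difference of 0.56 ± 0.16 (adjusted p = 0.0499) that did not pass in 16 of the 22 alternatives. With the 3'/5' covariate the call held and the difference was larger, at 0.83 (adjusted p = 0.037). BD_VNS 4 lay just above the highest control, and the BD arrays were at 9.03 to 9.61. Ccl11, which attracts eosinophils, was at 9.77, 9.73 and 9.95 in NBD and at 9.38, 9.84, 9.58 and 9.03 in BD_VNS (-0.36, interval -0.68 to -0.03, adjusted p = 0.171), against 10.48 to 10.79 in BD. Cxcl2, Il6, Il10, Tnf, Vcam1, Sele, Selp, Ptgs2 and Socs3 did not pass, with differences from -0.13 for Vcam1 to 0.13 for Socs3. Vcam1 was the widest of these, with an interval of -0.42 to 0.15. Cxcl2, Il6, Il10 and Sele had means below that of the hepatocyte marker Tat, which was at 6.47 and percentile 7.7 in NBD and in BD_VNS. Il6 was at 6.33 in NBD and 6.39 in BD_VNS, and Il10 at 6.37 and 6.302. Probe sets this dim may read no signal, so their differences cannot show whether these genes were at the control level. For Nos2 and Chrna7 no probe set carried the name.

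The list of 47 cytokines and chemokines had 2 members higher and 5 lower in BD_VNS than in NBD (median -0.01). Besides Ccl2, Cx3cl1, a membrane-bound chemokine, rose by 0.29 ± 0.05 (adjusted p = 0.00686). Ccl5, a chemokine of T cells, was at 9.60, 9.67 and 9.66 in NBD and 8.92, 9.21, 8.63 and 8.21 in BD_VNS and fell 1.87-fold (adjusted p = 0.00936). Cxcl12, made by stromal cells to retain leukocytes, was at 8.97, 8.97 and 9.13 against 8.40, 8.70, 8.43 and 8.19, a difference of -0.60 ± 0.10 (adjusted p = 0.00354). Ccl6 and Cxcl11 fell by 0.65 and 0.45, and Tgfb3, named after its values were seen, fell by 0.40, a call lost in 9 alternatives. With the 3'/5' covariate 0 of these genes passed as lower, with Ccl5 at -0.50 (adjusted p = 0.128) and Cxcl12 at -0.42 (adjusted p = 0.059).

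Of 18 NF-kB targets and feedback genes 2 rose, 3 fell and 13 did not pass (median -0.005). Nfkbia, which holds NF-kB in the cytoplasm and is itself an NF-kB and glucocorticoid target, was at 9.9996, 10.20 and 10.06 in NBD and at 9.16, 9.58, 9.58 and 9.40 in BD_VNS, a difference of -0.66 ± 0.11 (adjusted p = 0.00363) that did not pass with the 3'/5' covariate (adjusted p = 0.0637). Tnip1, another inhibitor, fell by 0.37 ± 0.06 (adjusted p = 0.00288). Bcl3 and Nfkb1, members of the NF-kB and IkB families, rose by 0.46 ± 0.08 (adjusted p = 0.00605) and 0.22 ± 0.04 (adjusted p = 0.0076), and Map3k8, a kinase of the pathway, fell by 0.26 ± 0.07 (adjusted p = 0.0383, lost in 9 alternatives). The BD_VNS mean of Map3k8, 6.31, was below that of Tat, where a probe set may read no signal. Of 27 interferon response genes 2 rose and 5 fell (median -0.07). Irf1 rose by 0.45 ± 0.09 (adjusted p = 0.00929) and Tap1, a peptide transporter, rose by 0.26 ± 0.05, while Isg20 fell by 0.26 ± 0.04 (adjusted p = 0.00473). With the 3'/5' covariate Irf1, Tap1 and Isg20 did not pass (adjusted p = 0.129, 0.0551 and 0.0636), and 0 of the 27 genes were higher and 1 was lower. Isg15 and Rsad2, named after their values were seen, fell by 0.49 and 0.58 with calls lost in 7 and 14 alternatives. Of 14 adhesion molecules, F11r rose by 0.18, a call lost in 11 alternatives, and Icam2 and Jam3 fell by 0.38 and 0.31. Without BD_VNS 2, 6 of the 14 were lower, in a fit where the number lower among all 11427 genes was 831, against 549 in the main fit.

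**Figure D3:**
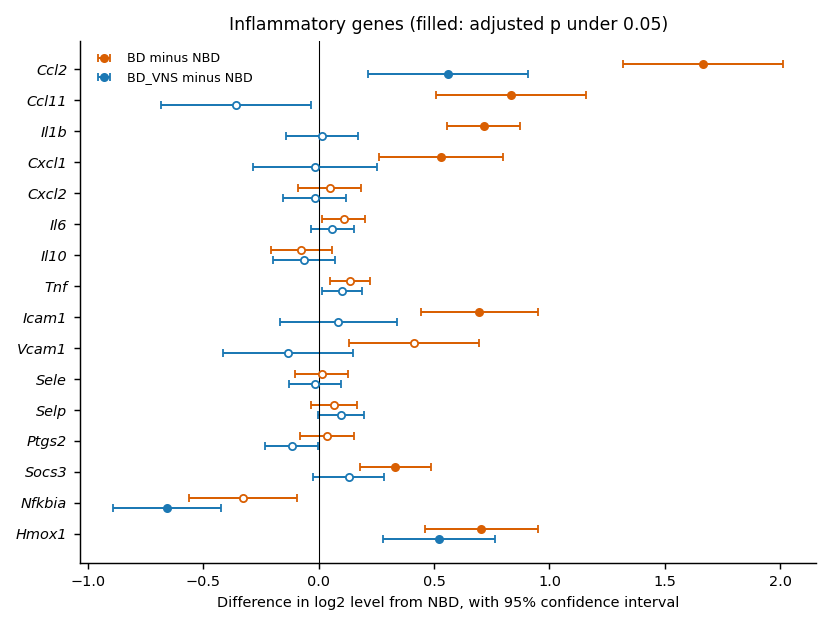
Difference in log2 level from NBD (horizontal axis) of 16 inflammatory genes, for BD in orange and BD_VNS in blue, with 95% confidence intervals from the same fit and the same 3 NBD arrays. Filled points passed at an adjusted p under 0.05: in BD_VNS these were Ccl2, Nfkbia and Hmox1, and Il1b lay at 0.01.

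In the lists of macrophage, mast cell, matrix and secretory cell genes the members that passed were all lower, 9 of 16, 7 of 16, 11 of 36 and 3 of 15. With the 3'/5' covariate these counts were 2, 0, 3 and 0, while the number lower among all 11427 genes went from 549 to 263. In whole tissue, fewer cells of a type and less RNA per cell cannot be told apart. Of 16 macrophage genes 9 fell and 0 rose, with 12 at an unadjusted p under 0.05 and a median of -0.55. The mean of the list was 8.51, 8.59 and 8.70 in NBD 1, 3 and 4 and 8.06, 8.34, 8.04 and 7.81 in BD_VNS 1 to 4. BD_VNS 2, highest here, had the lowest 3' to 5' ratio of its group, and BD_VNS 4, lowest here, had the highest. With that ratio as a covariate, 2 of the 16 genes fell and the median was -0.37. In BD the list mean was 8.56 to 8.72, 0 of the 16 genes passed against NBD, and 10 were lower in BD_VNS than in BD, where 3.66% of all genes were.

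C1qb, a chain of the first complement component that tissue macrophages make, was at 9.87, 9.93 and 10.09 in NBD and at 8.62, 9.40, 8.69 and 8.18 in BD_VNS. It fell 2.36-fold (adjusted p = 0.00366), and with the covariate the difference was -0.77 (adjusted p = 0.0453). C1qc, another chain, fell 2.37-fold (adjusted p = 0.00512), and with the covariate it did not pass (-0.76, adjusted p = 0.0736). Csf1r, the receptor for the macrophage growth factor, was at 8.48, 8.59 and 8.73 against 7.97, 8.34, 7.89 and 7.63 and fell by 0.64 ± 0.13 (adjusted p = 0.00957). Tyrobp, a signalling adaptor of myeloid cells, fell by 0.70 ± 0.10 (adjusted p = 0.00178) and the inhibitory IgG receptor Fcgr2b by 0.97 ± 0.15 (adjusted p = 0.00339). Each of the 5 had BD_VNS 2 as its highest stimulated array. Of 9 neutrophil genes 0 passed, with 1 at an unadjusted p under 0.05.

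Of 21 complement genes 7 fell and 1 rose (median -0.14), the C1q chains among them, and with the 3'/5' covariate 2 fell and 0 rose. Cd59b, which protects cells from complement, was at 11.19, 10.98 and 10.99 in NBD and at 9.91, 9.90, 10.04 and 9.96 in BD_VNS and fell by 1.099 ± 0.10 (adjusted p = 0.000135). Its stimulated arrays were nearly level, and its BD arrays were at 9.62 to 10.06. Cfd, complement factor D, fell by 0.89 ± 0.16 (adjusted p = 0.00628) and did not pass with the covariate (adjusted p = 0.0864). The rise was that of Cfi, a complement inhibitor named after its values were seen (0.53 ± 0.11, adjusted p = 0.0107), and the call was lost with the covariate and without NBD 3.

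Of 16 mast cell genes 7 fell and 0 rose, with 8 at an unadjusted p under 0.05 (median -0.20). Mcpt1, a protease of mucosal mast cells, was at 10.32, 10.31 and 10.55 in NBD and at 8.52, 9.76, 8.62 and 7.38 in BD_VNS. The stimulated arrays spread widely, and Mcpt1 fell 3.54-fold (adjusted p = 0.0137), a call that was lost without NBD 4. Without BD_VNS 2 the difference was -2.22 (adjusted p = 0.000611), and with the covariate it was -0.91 (adjusted p = 0.178). Cpa3, the mast cell carboxypeptidase, was at 8.36, 8.46 and 8.72 against 7.08, 7.93, 7.15 and 6.70 and fell 2.46-fold (adjusted p = 0.00522). Mcpt10, Srgn and Hpgds fell by 0.72, 0.79 and 0.52. In BD_VNS the mean of Mcpt10 was 6.31, below that of Tat, where a probe set may read no signal. Close copies of the Mcpt genes may share probes. With the covariate 0 of the 16 genes passed as lower.

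Of 36 matrix and fibroblast genes 11 fell and 0 rose, with 24 at an unadjusted p under 0.05 (median -0.29). Dcn, a proteoglycan that binds collagen, was at 11.47, 11.42 and 11.53 in NBD and at 10.20, 10.99, 10.23 and 9.84 in BD_VNS and fell 2.23-fold (adjusted p = 0.00398). Mgp, an inhibitor of calcification, was at 10.99, 11.01 and 11.23 against 9.97, 10.20, 10.14 and 9.62 and fell 2.13-fold (adjusted p = 0.000227). Dcn and Mgp also passed with the 3'/5' covariate, at -0.69 (adjusted p = 0.0422) and -0.95 (adjusted p = 0.0068), and 3 of the 36 genes did in all. Col6a1, Lamc1 and Timp3 fell by 0.71, 0.57 and 0.29. In BD against NBD 0 of the 36 genes fell and 3 rose, where 2.1% of all genes rose, and the mean level of the list was 8.89 to 9.01 in NBD, 9.06 to 9.22 in BD and 8.42 to 8.87 in BD_VNS.

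Genes of goblet and Paneth cells, which secrete mucus and antimicrobial proteins, had the highest stimulated mean in BD_VNS 2 (10.01) and the lowest in BD_VNS 4 (9.59). Zg16, a lectin of the mucus layer, was at 13.56, 13.50 and 13.42 in NBD and at 12.69, 13.08, 12.77 and 12.25 in BD_VNS and fell 1.74-fold (adjusted p = 0.00568). Tff3, a trefoil peptide that aids repair, fell by 0.58 ± 0.11 (adjusted p = 0.0082), and Guca2a, guanylin, fell by 0.67 ± 0.15 (adjusted p = 0.0188), a call lost in 3 alternatives. Agr2 and Clca1 did not pass, with differences of -0.39 and -0.43. In all 3 of 15 fell and 0 rose, with 9 at an unadjusted p under 0.05 (median -0.22), and with the covariate 0 fell.

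Of 18 adipocyte genes 7 fell and 0 rose, with 9 at an unadjusted p under 0.05 (median -0.28). Cidec, a lipid droplet protein, was at 8.91, 8.75 and 8.96 in NBD and at 7.96, 8.14, 8.10 and 8.06 in BD_VNS, a difference of -0.81 ± 0.08 (adjusted p = 0.000174). Fabp4, a fatty acid carrier of fat cells and capillaries, fell by 1.09 ± 0.15 (adjusted p = 0.00156). Other markers of fat cells were low in both groups: Plin1 was at percentile 11 in NBD and 12 in BD_VNS, and Lep at percentile 12.7 and 15. Car3, a carbonic anhydrase abundant in fat and muscle, was at 8.495 to 8.55 in NBD and 7.08 to 7.19 in BD_VNS and fell 2.61-fold (adjusted p = 0.0453). Its BD arrays ran from 7.01 to 9.01, and 11 of the 21 alternatives that included it lost the call.

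Vessel genes fell in part. Lyve1, a receptor of lymphatic endothelium and of some macrophages, was at 8.73, 8.62 and 9.06 in NBD and at 7.53, 7.88, 7.64 and 7.29 in BD_VNS and fell 2.33-fold (adjusted p = 0.00022). It was at 7.81 to 7.96 in BD. Mmrn1, of lymphatic endothelium, fell by 0.78 ± 0.17 (adjusted p = 0.0147), and Ptprb and Sox17, of blood vessels, fell by 0.30 and 0.12, which made 4 of 19 endothelial genes lower and 0 higher (median -0.07; 6 at an unadjusted p under 0.05). The calls of Mmrn1, Ptprb and Sox17 were lost in 3, 7 and 16 alternatives, and with the 3'/5' covariate 1 of the 19 genes was lower. Of 22 coagulation genes 4 fell and 0 rose, where 4.8% and 3.64% of all genes did. An unadjusted p under 0.05 was found for 7 (median -0.08). Plat, the tissue activator of plasminogen, was at 9.39, 9.32 and 9.51 against 8.59, 8.73, 8.53 and 8.34 and fell by 0.86 ± 0.09 (adjusted p = 0.000205). Plau, the urokinase activator, F3, tissue factor, and its inhibitor Tfpi fell by 0.36, 0.45 and 0.37. The calls of F3 and Tfpi were lost in 7 and 3 alternatives, and with the 3'/5' covariate 2 of the 22 genes were lower.

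**Figure D4:**
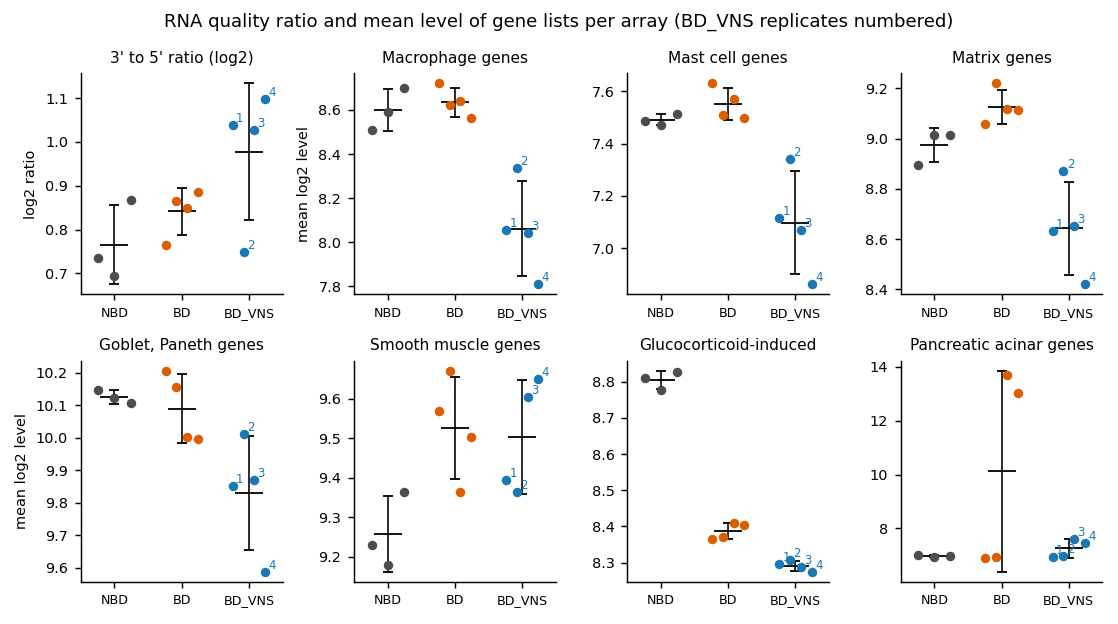
Log2 3' to 5' ratio of the control probe sets (first panel) and mean log2 level of 7 gene lists (other panels) on each array, with group mean and SD; BD_VNS replicates are numbered. BD_VNS 2, whose ratio of 0.75 lay in the control range, had the highest macrophage, mast cell, matrix and goblet means of its group. BD_VNS 4, with a ratio of 1.098, had the lowest. The glucocorticoid list was at 8.28 to 8.31 in the 4 arrays, also with BD_VNS 2 highest and BD_VNS 4 lowest.

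Smooth muscle genes and genes of transmitter handling that passed were all higher. Of 19 smooth muscle genes 3 rose and 0 fell, with 8 at an unadjusted p under 0.05 (median 0.22). Hspb6, a small heat shock protein of muscle, was at 8.93, 8.83 and 9.22 in NBD and at 9.55, 9.66, 9.65 and 9.78 in BD_VNS and rose by 0.66 ± 0.13 (adjusted p = 0.0105). Cnn1 (calponin) and Actg2, an enteric actin, rose by 0.51 ± 0.12 and 0.54 ± 0.14, with calls lost in 5 and 7 alternatives, and Des (desmin) did not pass (0.46, adjusted p = 0.0662). Of 25 cholinergic and adrenergic genes 3 rose and 0 fell, where 3.64% and 4.8% of all genes did (median 0.05). An unadjusted p under 0.05 was found for 6 of the 25, a share close to the 2631 of all 11427 genes. The 3 that rose were all enzymes that break down transmitters: Bche, a cholinesterase, rose by 0.28 ± 0.05 (adjusted p = 0.009), and the monoamine oxidases Maoa and Maob rose by 0.48 ± 0.11 (adjusted p = 0.0202) and 0.43 ± 0.10 (adjusted p = 0.0222). The nicotinic receptor subunit Chrna5 and the acetylcholine carrier Slc18a3 did not pass, each with a difference of 0.11. With the 3'/5' covariate, 0 of the 3 smooth muscle rises and 1 of these 3 passed.

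Further genes among the 15 largest falls belonged to none of the groups above. Slc37a2, a carrier of sugar phosphates, was at 10.80, 10.59 and 10.72 in NBD and at 9.45, 9.39, 9.22 and 9.13 in BD_VNS and fell 2.65-fold (adjusted p = 6.59e-06). Tmem86a, a membrane protein, was at 11.12, 11.44 and 11.36 against 10.09, 10.47, 9.91 and 9.56 and fell 2.46-fold (adjusted p = 0.00628). Their BD arrays were at 8.95 to 9.24 and at 9.15 to 10.24. The plot of shares sets the lists side by side: macrophage and glucocorticoid genes had the largest shares lower among the 26 lists drawn, and iron and apoptosis genes the largest shares higher.

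**Figure D5:**
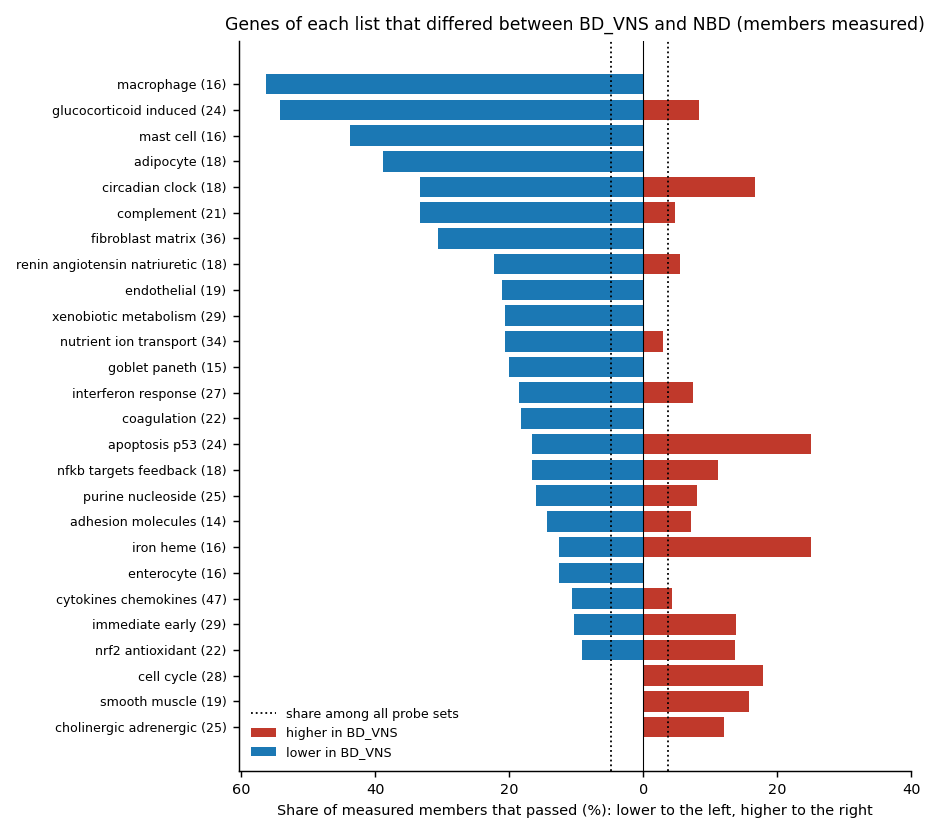
Share of the measured members of each of 26 gene lists that passed as lower (blue, to the left) or higher (red, to the right) in BD_VNS against NBD, in percent; the number measured stands in parentheses. Dotted lines mark the shares among all genes, 4.8% lower and 3.64% higher.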

How the data were processed

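RNA from 11 rat small intestine samples was measured on Affymetrix arrays. The authors deposited log2 levels for 11484 probe sets, with the software, background correction and normalization not given in the sources used here. The 57 control probe sets were used only for the 3' to 5' ratio. Of the 11427 probe sets tested, 11018 had a gene symbol in the platform table. A single limma model (3.58.1, R 4.3.3) held all arrays, with group as the only term, no filter on low values and Benjamini-Hochberg adjustment over all 11427. Every adjusted p in the text comes from this fit unless another is named. Genes are named where they were among the 15 largest rises or 15 largest falls whose arrays did not overlap, among 22 fixed genes, or among the 5 smallest p-values of a described list, in all 148; 23 more were chosen after their values were seen. The members and gene lists were chosen with earlier results of these data known. BD against NBD uses the same NBD arrays and BD_VNS against BD the same BD_VNS arrays, so no overlap between comparisons is given. The fit was tested on simulated data. The alternatives were another normalization, centring, low-level filters, array weights, fewer groups, a replicate block, covariates and leaving out each array.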

Additional observations from a re-analysis of the deposited data

Results flagged for a closer look

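In each of 370 checks of a group of 4 arrays, the gap between the most extreme array and its neighbour was divided by the group's range. It passed Dixon's 95% critical value in 12 of them, and chance alone passes about 1 group in 20.

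Among the stimulated arrays, BD_VNS 2 was lowest for Casp1, at 11.99 against 12.09 to 12.1 (0.938), for Slc28a2, at 10.66 against 11.23 to 11.33 (0.845), and for Ampd3, at 8.22 against 8.36 to 8.38 (0.853). It was highest for Jam2, at 7.6 against 7.43 to 7.46 (0.845), and for the mean of the adipocyte list, at 8.16 against 8.04 to 8.05 (0.894). BD_VNS 4 was highest for Egr1, at 10.1 against 9.21 to 9.32 (0.877), BD_VNS 3 for Socs3, at 7.2 against 6.99 to 7.02 (0.858), and BD_VNS 1 for Tfrc, at 10.73 against 10.45 to 10.49 (0.856).

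Among the unstimulated arrays, BD 3 was highest for Actg2, at 12.5 against 12.01 to 12.07 (0.895), and for Pnp, at 12.17 against 12.12 (0.917), and lowest for Hsd11b2, at 7.66 against 7.8 to 7.81 (0.92). BD 6 was lowest for Tap1, at 8.72 against 8.79 to 8.8 (0.913).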

How the results depend on the processing

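The count of 965 genes, 416 higher and 549 lower, depended on the setting. Array weights gave 2599 genes (1364 higher, 1235 lower), a refit holding the 3'/5' ratio gave 363 (100 and 263), of which 260 were among the 965, and a limit of 2-fold left 31 (6 and 25). The share lower was 56.9%, against 47.5% with array weights, 48.4% without the dimmer 50% of probe sets and 72.5% in that refit. Leaving out 1 array gave 494 to 1638 genes, 158 to 807 higher and 334 to 831 lower. The lowest total was without NBD 1, followed by 508 without NBD 3, 570 without BD_VNS 4 and 591 without NBD 4, and the highest was without BD_VNS 2. The cause was not tested. The other settings gave 803 to 1071 genes.

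No label says that replicate numbers pair the arrays. The deviations of same-numbered NBD and BD_VNS arrays correlated at 0.0214, -0.0112 and 0.0228, which cannot exclude shared handling by number. With the number as a block 968 genes passed (400 higher, 568 lower), 676 of them among the 965.

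Of the 171 named genes 145 passed, 91 of these in all 11 fits that left out an array and 56 in every alternative that included the gene. The low-level filters left out some genes, which had 20 or 21 alternatives and not 22. Of the 26 that did not pass, 15 passed in at least 1 alternative. None of the 171 changed direction while called. Leaving out 1 array gave 7 to 11 macrophage, 5 to 9 mast cell, 3 to 21 matrix and 2 to 7 goblet and Paneth genes lower. Each was highest without BD_VNS 2, as was the number lower over all genes. The matrix count was 3 without NBD 3, 5 without NBD 4 and 6 without BD_VNS 1.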
